A study of Mus musculus with 18 samples.

Results

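Lipid droplet and triglyceride turnover was followed through 10 genes in mouse liver cells given octanoate, a medium-chain fatty acid. The genes were Plin2, Plin3 and Plin4, Dgat1 and Dgat2, Lpin1 and Lpin2, Pnpla2, Lipe and Cidec. They were chosen by gene symbol, with earlier results of these data known. Every probe of the array annotated to one of these symbols was taken, which gave 18 of 45281 probes for 10 of 19057 named genes. AML12 is an immortalized line of hepatocytes from a mouse with a transgene for human transforming growth factor alpha, and all groups were this single line. Cells were seeded at 350000 per well, left overnight and kept for 24 h in complete DMEM with 10% fetal bovine serum plus 1 addition, either PBS as vehicle (n = 5) or octanoate at 1 mM (n = 4), at 2 mM (n = 5) or, as the highest dose, at 5 mM (n = 4). Each of the 18 RNA samples was read on 1 section of an Illumina mouse BeadChip, and whether replicates came from separate cultures is not stated in the labels. P-values therefore rest on the spread among these arrays only, and that spread may be technical.

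Hepatocytes store surplus fatty acid as triglyceride inside lipid droplets, which have a core of neutral lipid under a single phospholipid layer coated with perilipins. Triglyceride is built on glycerol phosphate by acylation, by removal of the phosphate from phosphatidate, which lipins carry out, and by a last acylation of diacylglycerol by Dgat1 or Dgat2. Breakdown starts with the lipase encoded by Pnpla2 (adipose triglyceride lipase), goes on with hormone-sensitive lipase (Lipe) and ends with monoglyceride lipase.

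In these cells 5 of the 9 genes that could be tested rose at 5 mM octanoate against PBS. They were the droplet coat gene Plin2 (1.69-fold), both acyltransferases Dgat1 (1.54-fold) and Dgat2 (1.98-fold), and both lipins Lpin1 (1.86-fold) and Lpin2 (1.58-fold). Plin3, the other widely expressed perilipin, fell to 0.731 of its PBS level. Pnpla2, Lipe and Plin4 did not pass the test, and Cidec was not detected on any array. A call here means an adjusted p under 0.05 in a limma fit of all 18 arrays, adjusted by Benjamini-Hochberg over 20536 tested probes. By the same rule 53.5% of all tested probes changed at 5 mM, 27.2% upward and 26.3% downward. Counted by gene, as the members are, 58.7% of all 10605 named genes changed. With most probes moving, the share of members that changed (66.7%) was read only beside this background and is near it. The median change of the members was 0.62 log2 units, against 0.01 over all named genes. Because the members were chosen with earlier results known, this contrast is only a description. Lipid itself was not measured.

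Fewer members moved at the lower doses. At 1 mM 2 of 9 rose (Plin2 and Dgat2) and 0 fell, where 17.6% of probes changed, 9.36% up and 8.26% down. At 2 mM 2 rose (the same genes) and 1 fell (Plin3), where 37.1% of probes changed, 18.2% up and 18.9% down. Between 1 and 2 mM 0 members rose and 1 fell (Plin3), where 4.79% of probes changed, 3.11% up and 1.68% down, and where 8.29% of probes had groups that did not overlap. Between 2 and 5 mM 3 rose (Dgat2, Lpin1 and Lpin2) and 0 fell, where 28.6% of probes changed, 15.4% up and 13.2% down. Counted by gene, 22.2% of members and 19.6% of all named genes changed at 1 mM, and 33.3% and 40.8% at 2 mM. Between 1 and 2 mM these shares were 11.1% and 5.95%, and between 2 and 5 mM 33.3% and 33.5%.

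The arrays lay on 3 BeadChips of 6, and dose and BeadChip overlapped only in part. The PBS arrays shared BeadChip 1 with a single treated array, replicate 1 of the 1 mM group. On BeadChip 2 were the other 3 arrays at 1 mM with the first 3 at 2 mM, and on BeadChip 3 the last 2 at 2 mM with the whole 5 mM group. A fit with BeadChip as a term is therefore given beside the results below. Its values against PBS chain through that 1 array, whereas 2 mM and 5 mM can be compared within BeadChip 3. In that fit 0 members changed at 1 mM, where 6.31% of all tested probes changed. At 2 mM 2 rose and 0 fell, where 10.4% of probes changed, and at 5 mM 3 rose and 0 fell, where 24.2% changed. Counted by gene, of 10605 named genes 496 rose and 298 fell at 1 mM in that fit. At 2 mM 838 rose and 476 fell, and at 5 mM 1706 rose and 1269 fell.

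Marker genes were read as a check of the label. Of 12 hepatocyte markers 8 were detected on at least 4 arrays, with Ttr, Trf, Apob, Hnf4a, Krt8 and Krt18 on all 18, whereas albumin (Alb), Fgb and Tat were not detected on any array. The summed linear level of the hepatocyte list ran from 29040 to 31790 in PBS, 33240 to 34750 at 1 mM, 33730 to 35910 at 2 mM and 42440 to 47730 at 5 mM. By gene, Ttr, Trf, Apob, Hnf4a, Serpina1a and Apoa1 rose at 5 mM (0.77 to 4.22 log2 units), while Krt8 (−0.27, adjusted p = 0.0069) and Krt18 (−0.32, adjusted p = 0.00101) fell. The part of these changes in the results was not tested. The biliary markers Krt7, Krt19 and Sox9 were detected on all 18 arrays while Epcam was not detected on any, and the list summed to 4997 to 5278 in PBS, 5161 to 5753 at 1 mM, 5233 to 6076 at 2 mM and 5391 to 6157 at 5 mM. Of these, Krt7 (−1.08, adjusted p = 2.09e-07) and Krt19 (−0.25, adjusted p = 0.0112) fell at 5 mM and Sox9 rose (0.34, adjusted p = 0.000816). Of the adipocyte markers, cells in which several members are best known, 0 of 5 with a probe were detected on 4 arrays, and Adipoq, Fabp4, Plin1 and Retn were at background throughout. That list summed to 103.4 to 113.9 in PBS and 104.9 to 119.5 at 5 mM. Macrophage, stellate and endothelial lists had 1 of 4, 2 of 6 and 1 of 4 probed genes detected on at least 4 arrays. The stellate and fibroblast list summed to 133.1 to 145.8 in PBS and 150 to 175.3 at 5 mM, where Des (0.68, adjusted p = 0.00223) and Dcn (0.58, adjusted p = 0.000964) rose and Lrat, Col1a1, Col3a1 and Pdgfrb were not detected on any array. Endothelial Kdr fell by 0.40 at 5 mM (adjusted p = 0.00563), and macrophage Csf1r did not pass (0.16, adjusted p = 0.218). The part of these markers in the results was not tested. Detected probes per array numbered 17446 to 18483 in PBS, 17688 to 18461 at 1 mM, 17910 to 18341 at 2 mM and 18643 to 19842 at 5 mM, and the part of this rise in the members' changes was not tested. Since each array pools a whole culture, fewer cells with a transcript and less of it per cell cannot be told apart.

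Promoter sequences are shown for Lpin1 and for Plin2 and Plin3, which were called in opposite directions at 5 mM without a BeadChip term. They are the 250 bases before a transcript start, from RefSeq on GRCm38.p6, written 5′ to 3′ on the gene's strand. Capitals mark every match, on either strand, to 1 of 5 motifs that do not contain each other, namely AGGTCA (the hexamer of nuclear receptors), CACGTG (an E-box), GGGCGG (the GC box), TATAAA (the TATA box) and CCAAT (bound by the trimer NF-Y).
Plin2, chr4:86670060-86670309, minus strand: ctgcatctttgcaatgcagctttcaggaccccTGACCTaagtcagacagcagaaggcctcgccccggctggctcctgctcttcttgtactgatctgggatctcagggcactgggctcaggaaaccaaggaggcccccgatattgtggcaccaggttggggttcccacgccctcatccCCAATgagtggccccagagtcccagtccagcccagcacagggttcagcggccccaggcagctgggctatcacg
Plin3, chr17:56290512-56290761, minus strand: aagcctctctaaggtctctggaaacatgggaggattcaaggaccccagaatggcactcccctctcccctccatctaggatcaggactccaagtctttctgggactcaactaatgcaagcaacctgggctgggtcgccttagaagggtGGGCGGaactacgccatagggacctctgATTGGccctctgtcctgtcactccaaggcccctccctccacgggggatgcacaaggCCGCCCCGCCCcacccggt
Lpin1, chr12:16610967-16611216, minus strand: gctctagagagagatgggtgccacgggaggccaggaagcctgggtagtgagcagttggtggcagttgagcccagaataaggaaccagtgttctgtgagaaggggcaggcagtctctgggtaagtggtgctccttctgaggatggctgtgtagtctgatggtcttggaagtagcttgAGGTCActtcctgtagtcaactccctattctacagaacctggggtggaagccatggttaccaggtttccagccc
AGGTCA was present in the Plin2 window, 218 bases before the start on the opposite strand, and in the Lpin1 window, 74 bases before the start. It was present in 14% of all 32851 windows of this length. The Plin3 window held 3 matches to GGGCGG, 103, 19 and 14 bases before the start, and GGGCGG was present in 32.7% of windows. CCAAT was found in the Plin2 window at 73 bases and in the Plin3 window, on the opposite strand, at 75 bases, against 33.8% of windows. None of the 3 windows shown held CACGTG (6.02% of windows) or TATAAA (12.4%). Of the members' windows not shown, none held AGGTCA, also none of Lpin2, which rose at 5 mM. GGGCGG was present in windows of Lpin2 and in windows of Pnpla2 and Lipe, which were not called. A match describes the letters and not a binding site. The table held windows for 8 of the 10 genes and none for Dgat1 or Dgat2, and the Plin2 and Lpin1 windows lie at starts inside the annotated genes.

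Plin2 encodes the perilipin that coats droplets of hepatocytes and is broken down when not bound to lipid. Its log2 level was 9.70, 9.87, 9.53, 9.73 and 9.57 on PBS replicates 1 to 5. It was 10.07, 9.97, 9.92 and 10.19 on 1 mM replicates 1 to 4, and 10.40, 10.22, 10.33, 10.13 and 10.36 on 2 mM replicates 1 to 5. On 5 mM replicates 1 to 4 it was 10.46, 10.50, 10.55 and 10.25. Every octanoate array lay above every PBS array, whereas 2 mM overlapped both 1 mM and 5 mM. Plin2 rose by 0.36 ± 0.09 log2 units (SE) at 1 mM (adjusted p = 0.0104), by 0.61 ± 0.09 at 2 mM (1.52-fold, adjusted p = 1.58e-05) and by 0.76 ± 0.09 at 5 mM (adjusted p = 5.67e-07). Its steps from 1 to 2 mM (0.25, adjusted p = 0.122) and from 2 to 5 mM (0.15, adjusted p = 0.234) did not pass. In the fit with BeadChip as a term the changes were 0.39 (adjusted p = 0.146), 0.68 (adjusted p = 0.0313) and 0.87 ± 0.23 (adjusted p = 0.00901), so the call at 1 mM was lost. That call was also lost with median scaling (0.16, adjusted p = 0.495) and without 3 arrays that stood apart from their groups in an earlier analysis (0.26, adjusted p = 0.147).

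Plin3 encodes a perilipin that also occurs in the cytosol and coats newly formed droplets. Its log2 level was 9.96, 10.17, 9.77, 10.01 and 10.14 on PBS replicates 1 to 5, and 9.88, 9.85, 9.59 and 9.88 on 1 mM replicates 1 to 4. It was 9.39, 9.37, 9.50, 9.55 and 9.40 on 2 mM replicates 1 to 5 and 9.68, 9.40, 9.60 and 9.55 on 5 mM replicates 1 to 4. All arrays at 2 and 5 mM lay below all PBS arrays, and the lowest mean was at 2 mM (9.44 ± 0.08, SD, n = 5) rather than at 5 mM (9.56 ± 0.12, n = 4), 2 groups that overlapped and did not differ by the test (0.11 ± 0.09, adjusted p = 0.404). Plin3 fell by 0.57 on the log2 scale at 2 mM (SE 0.09, adjusted p = 3.92e-05) and by 0.45 at 5 mM (SE 0.09, adjusted p = 0.000321). The change at 1 mM was −0.21 ± 0.09 (adjusted p = 0.121), and it passed only without PBS replicate 3 (−0.27, adjusted p = 0.0475). From 1 to 2 mM Plin3 fell by 0.35 (adjusted p = 0.0323), a call lost when 1 mM replicate 1, 2 or 4 or 2 mM replicate 1, 2 or 5 was left out (adjusted p from 0.0583 to 0.0827). On BeadChip 2, which held 3 arrays of each of these doses, the 2 mM arrays (9.37 to 9.50) still lay below the 1 mM arrays (9.59 to 9.88). With BeadChip as a term the changes against PBS were −0.48 at 2 mM (adjusted p = 0.123) and −0.40 at 5 mM (adjusted p = 0.223), so neither fall was called, nor was the step from 1 to 2 mM (−0.35, adjusted p = 0.138). With median scaling the fall at 5 mM was −0.33 (adjusted p = 0.0619).

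The difference between the 2 perilipins was tested within arrays. A shift in it can come from 1 of the genes alone, so it does not test opposite directions. The log2 difference of Plin2 minus Plin3 averaged −0.33 ± 0.14 (SD, n = 5) in PBS. With rising dose it averaged 0.24 ± 0.10 (n = 4), 0.84 ± 0.17 (n = 5) and 0.88 ± 0.18 (n = 4). The shift from PBS was 0.57, 1.17 and 1.21 in that order, and each gave the smallest p that an exact two-sided permutation test allows here (p = 0.00794, adjusted p = 0.0317 over 12 such tests of 4 pairs). Groups did not overlap in this difference at any dose against PBS, and its level is that of 2 different probes, so only the shift is read. The shift at 5 mM stayed between 1.05 and 1.27 over 22 alternatives, although with 1 array fewer the adjusted p often exceeded the threshold (up to 0.114) because fewer arrangements exist. The test has no BeadChip term. On BeadChip 1 the difference was 0.19 on 1 mM replicate 1, the only treated array there, and −0.57 to −0.23 on the PBS arrays. No array at 2 or 5 mM shared a BeadChip with PBS, so dose and BeadChip cannot be told apart in those shifts.

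**Figure D1:**
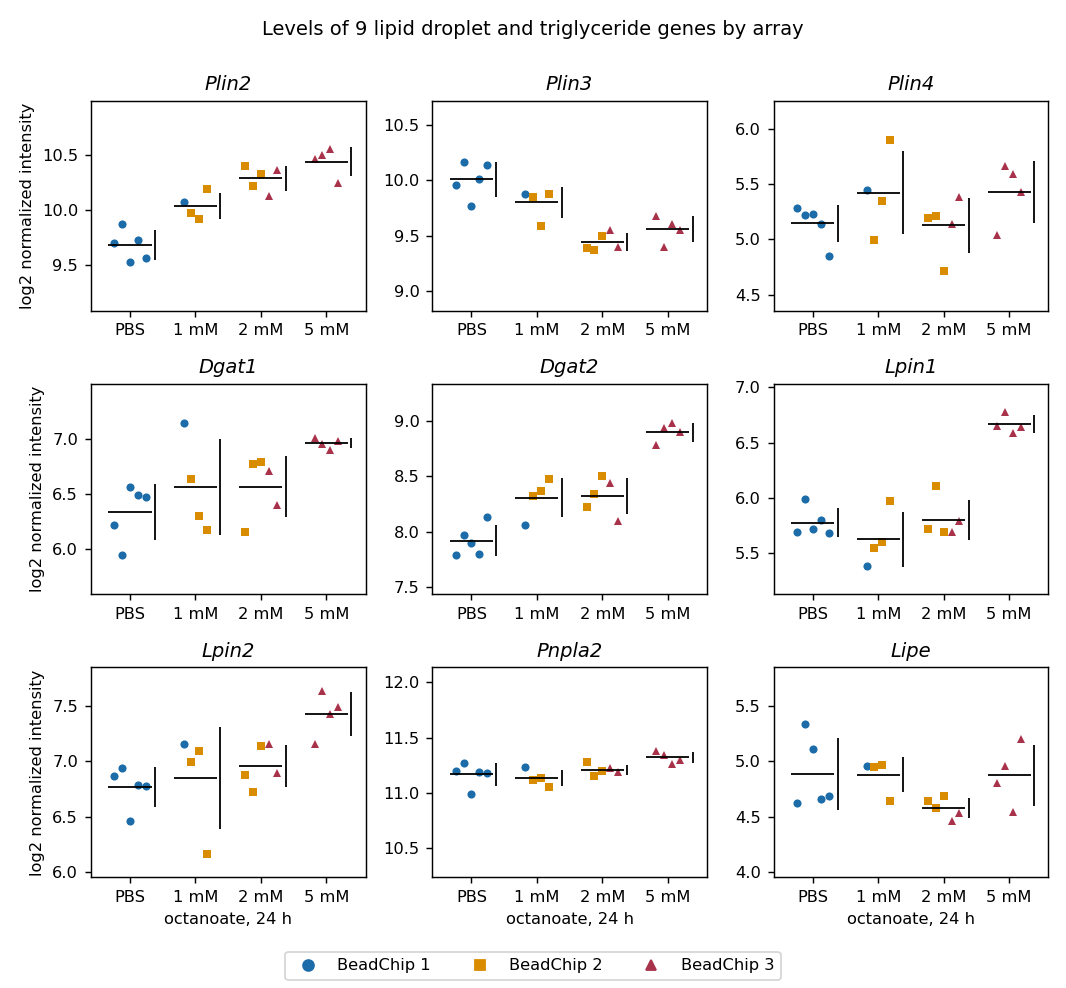
Log2 normalized intensity (y axis) of the 9 tested genes on each array, by dose (x axis), with 1 point per array, its shape and colour giving the BeadChip, a horizontal line at the group mean and a vertical line of 1 SD to each side. Each panel spans the same number of log2 units: Plin2 climbs from 9.68 to 10.44 in group means while Plin3 drops from 10.01 to 9.56, and Lpin1 stands apart from the other groups at 5 mM.

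Plin4, a perilipin best known from adipocytes and muscle, was near background. Its probe was detected on 16 of 18 arrays and ranged from 4.85 to 5.28 in PBS, 4.99 to 5.90 at 1 mM, 4.71 to 5.38 at 2 mM and 5.04 to 5.66 at 5 mM. All groups overlapped, and the change at 5 mM was 0.29 log2 units with a 95% interval from −0.05 to 0.63 (adjusted p = 0.151), and 0.09 with BeadChip as a term (adjusted p = 0.9). It passed without 5 mM replicate 1 (0.42, adjusted p = 0.0447) and with median scaling (0.45, adjusted p = 0.0148). Cidec, which in adipocytes drives the growth of droplets by lipid transfer, has 1 probe, which was not detected on any of the 18 arrays (detection p from 0.0598 to 0.924) and was not tested.

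Dgat2 encodes the endoplasmic reticulum and droplet enzyme of the last acylation. It read 7.79, 7.97, 7.90, 7.80 and 8.13 on PBS replicates 1 to 5 and 8.06, 8.32, 8.37 and 8.48 on 1 mM replicates 1 to 4. At 2 mM replicates 1 to 5 read 8.22, 8.34, 8.50, 8.44 and 8.10, and at 5 mM replicates 1 to 4 read 8.78, 8.94, 8.98 and 8.90. The 5 mM arrays lay above all others, while 1 mM and 2 mM each overlapped PBS through 1 array and had nearly equal means (8.31 ± 0.18 and 8.32 ± 0.16). Dgat2 rose by 0.39 ± 0.10 at 1 mM (adjusted p = 0.0115), 0.40 ± 0.10 at 2 mM (adjusted p = 0.00245) and 0.98 ± 0.10 at 5 mM (adjusted p = 6.67e-08). Without a BeadChip term the last was the members' largest rise at 5 mM by brightest probe (Dgat1, Lpin2 and Plin2 were larger with the term). The step from 2 to 5 mM was 0.58 ± 0.10 (adjusted p = 0.000167) and was 0.63 ± 0.12 with BeadChip as a term (adjusted p = 0.000962). On BeadChip 3 itself the 2 mM arrays read 8.44 and 8.10 against 8.78 to 8.98 at 5 mM. The rises at 1 and 2 mM did not hold with BeadChip as a term (0.14, adjusted p = 0.65, and 0.10, adjusted p = 0.787), that at 5 mM did (0.73, adjusted p = 0.0243). Median scaling also ended the calls at 1 mM (0.23, adjusted p = 0.344) and 2 mM (0.35, adjusted p = 0.0678).

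Dgat1 encodes the unrelated enzyme of the same reaction. It read 6.22, 5.95, 6.56, 6.49 and 6.47 on PBS replicates 1 to 5, and 7.14, 6.64, 6.30 and 6.17 on 1 mM replicates 1 to 4. At 2 mM replicates 1 to 5 read 6.16, 6.77, 6.79, 6.71 and 6.40, and at 5 mM replicates 1 to 4 read 7.01, 6.95, 6.90 and 6.98. The 5 mM arrays were tightly grouped (SD 0.04) and above all PBS and 2 mM arrays, but 1 mM replicate 1 was the highest of all 18. Dgat1 rose by 0.62 ± 0.17 at 5 mM (adjusted p = 0.00438), and was at 0.23 at both lower doses (adjusted p = 0.399 and 0.283). The step from 2 to 5 mM was 0.39 ± 0.17 (adjusted p = 0.0969), and it passed without 1 mM replicate 1 (adjusted p = 0.0433) and with median scaling (0.61, adjusted p = 0.00734). The fit with BeadChip as a term gave 1.42 ± 0.35 at 5 mM (adjusted p = 0.00638) and 1.01 at 2 mM (adjusted p = 0.0364), estimates that rest on 1 mM replicate 1.

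Change did not differ beyond the error between the 2 acyltransferases. The shift of Dgat2 minus Dgat1 within arrays was 0.36 at 5 mM (exact permutation p = 0.0635, adjusted p = 0.127), 0.17 at 2 mM (exact p = 0.27) and 0.16 at 1 mM (exact p = 0.635). In the authors' processed values the shift at 5 mM was 0.45 and passed (adjusted p = 0.0238).

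Lipins remove the phosphate from phosphatidate, and lipin 1 is also known as a transcriptional coactivator of genes for fatty acid oxidation. For Lpin1 the brightest of 4 probes, ILMN_3111744, read 5.69, 5.99, 5.72, 5.80 and 5.68 on PBS replicates 1 to 5 and 5.38, 5.55, 5.60 and 5.97 on 1 mM replicates 1 to 4. On 2 mM replicates 1 to 5 it read 5.72, 6.11, 5.69, 5.69 and 5.79, and on 5 mM replicates 1 to 4 it read 6.65, 6.78, 6.59 and 6.64. PBS, 1 mM and 2 mM overlapped and the 5 mM arrays stood above all of them. Lpin1 rose by 0.89 ± 0.11 at 5 mM (adjusted p = 9.28e-07) and by 0.87 ± 0.11 from 2 to 5 mM (1.83-fold, adjusted p = 4.6e-06). At 1 and 2 mM it was at −0.15 (adjusted p = 0.39) and 0.02 (adjusted p = 0.886). Within BeadChip 3 the contrast was as large, with 2 mM at 5.69 and 5.79 and 5 mM from 6.59 to 6.78, and the fit with BeadChip as a term gave 0.93 ± 0.14 (adjusted p = 7.42e-05). Against PBS that fit gave 0.67 ± 0.26 at 5 mM (adjusted p = 0.0665).

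Another Lpin1 probe, ILMN_2507725, was detected on all 18 arrays too. It ranged from 4.95 to 5.39 in PBS, 4.96 to 5.66 at 1 mM, 5.41 to 6.27 at 2 mM and 6.30 to 6.93 at 5 mM. It rose by 0.64 ± 0.17 at 2 mM (adjusted p = 0.00597), where the brighter probe did not pass, and by 1.49 ± 0.18 at 5 mM (2.8-fold, adjusted p = 6.83e-07). With BeadChip as a term neither was called (0.11, adjusted p = 0.888, and 0.80 ± 0.42, adjusted p = 0.185). Its change from PBS to 5 mM exceeded that of the brighter probe by 0.59 (within-array difference, exact permutation p = 0.0159, adjusted p = 0.0476). This difference was 0.34 with an offset of 50 in the background step (adjusted p = 0.114) and 0.11 in the authors' processed values (adjusted p = 0.111), and it was lost in most fits with 1 array fewer, so its size is unsettled. At 2 mM the difference of the changes was 0.61 (exact p = 0.0635, adjusted p = 0.127). The probes are annotated to different Lpin1 transcripts. The other 2 Lpin1 probes are annotated to the same 2 transcripts but were not detected on any array, so no difference between transcripts is read.

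Lpin2 rose by 0.66 ± 0.17 at 5 mM (adjusted p = 0.00211) by its brightest probe, ILMN_1220680. That probe ranged from 6.46 to 6.94 in PBS, 6.16 to 7.16 at 1 mM, 6.72 to 7.16 at 2 mM and 7.16 to 7.64 at 5 mM. The 5 mM arrays lay above the PBS arrays and overlapped 1 mM and 2 mM, and 1 mM replicate 4 (6.16) was the lowest of all 18. The step from 2 to 5 mM was 0.47 ± 0.17 (adjusted p = 0.0389). It was lost when 2 mM replicate 1, 2 or 5 or 5 mM replicate 2, 3 or 4 was left out (adjusted p from 0.0697 to 0.119) and with BeadChip as a term (0.41, adjusted p = 0.2). At 1 and 2 mM Lpin2 was at 0.08 and 0.19 (adjusted p = 0.778 and 0.363), and with BeadChip as a term its 5 mM value was 0.97 ± 0.40 (adjusted p = 0.0846). The dimmer probes ILMN_2576431 (0.27 ± 0.15, adjusted p = 0.144) and ILMN_2552541 (−0.12 ± 0.15, adjusted p = 0.535) did not pass at 5 mM, and the mean of the 3 gave 0.27 and passed. The 2 lipins did not differ beyond the error in their change at 5 mM (Lpin1 minus Lpin2, 0.23, exact permutation p = 0.103), though without 1 mM replicate 4 the difference at 1 mM moved from −0.23 to −0.58 and passed (adjusted p = 0.0429).

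**Figure D2:**
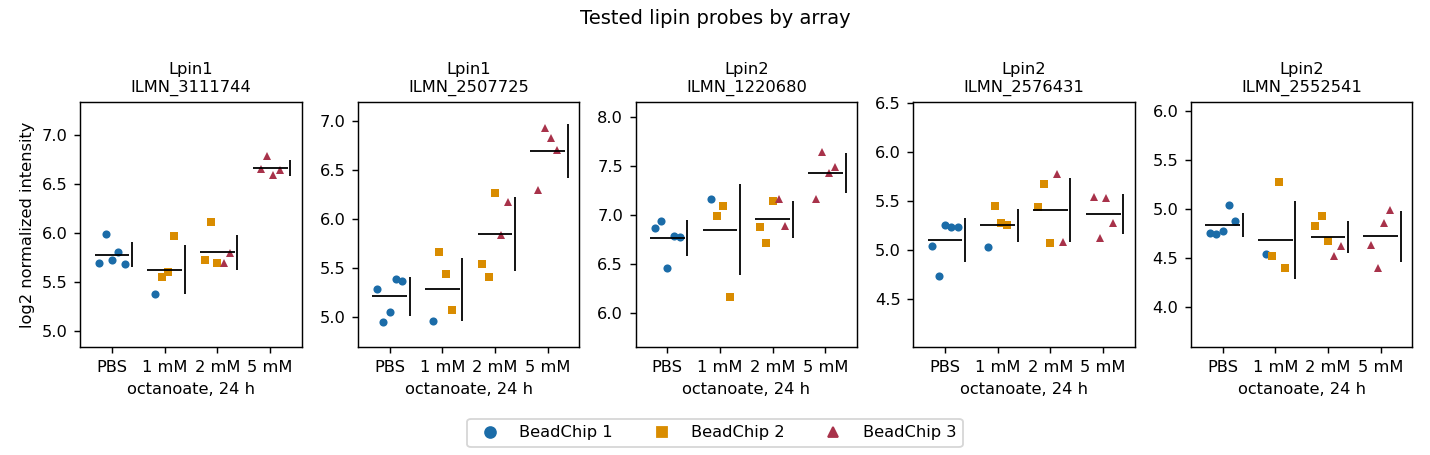
Log2 normalized intensity (y axis) on each array for the 5 tested lipin probes, by dose (x axis), with points by BeadChip, a line at the group mean and a bar of 1 SD to each side. Both Lpin1 probes and the brightest Lpin2 probe are highest in mean at 5 mM, and ILMN_2507725 is also called at 2 mM (0.64 log2 units) in the fit without a BeadChip term.

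Pnpla2 encodes the lipase that takes the first fatty acid off triglyceride. It was the brightest of the members' probes, at 10.99 to 11.27 in PBS, 11.05 to 11.23 at 1 mM, 11.15 to 11.28 at 2 mM and 11.26 to 11.38 at 5 mM. The 5 mM arrays overlapped PBS by a narrow margin, and the change of 0.15 ± 0.07 had a 95% interval from 0.00 to 0.30 and did not pass (adjusted p = 0.0772). It passed in the authors' processed values (0.12, adjusted p = 0.0455) and in a fit of mean values per gene (adjusted p = 0.0436), and was 0.29 with BeadChip as a term (adjusted p = 0.233). At 1 and 2 mM it was at −0.03 and 0.04 (adjusted p = 0.79 and 0.669).

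Lipe encodes hormone-sensitive lipase, which acts mainly on diacylglycerol. Its brightest probe was detected on 8 of 18 arrays and on 0 of 5 at 2 mM, so its levels (4.46 to 5.34 over all groups) were at the edge of background. It was at −0.01 log2 units at 5 mM with an interval from −0.31 to 0.29 (adjusted p = 0.953), and at 0.23 with BeadChip as a term (adjusted p = 0.694). At 2 mM it was at −0.31 (adjusted p = 0.0861), which passed without PBS replicate 1 (−0.37, adjusted p = 0.0487). PBS itself was detected on 2 of 5 arrays. Its mean was 1.04-fold the floor set for the 2 mM arrays, from which no difference is read. A second probe was detected on 6 arrays (0.07 at 2 mM, adjusted p = 0.699, and 0.17 at 5 mM, adjusted p = 0.291) and the third on 0.

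**Figure D3:**
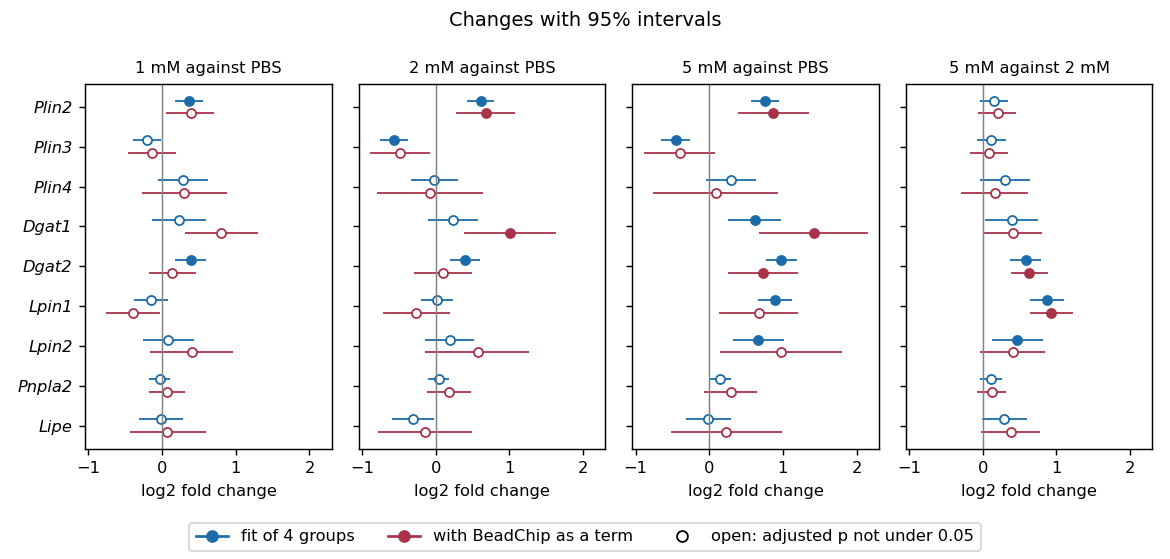
Log2 fold change (x axis) with its 95% interval for the 9 tested genes (y axis) in 4 comparisons, from the fit of 4 groups in blue and the fit with BeadChip as a term in red, filled where adjusted p is under 0.05. Intervals of the second fit are wider against PBS than between 5 and 2 mM, where Dgat2 (0.63) and Lpin1 (0.93) stay filled.

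The order of levels across doses differed among the members in the fit without a BeadChip term. Plin2 rose at each of the 3 doses against PBS, with neighbouring doses not told apart by the test. Dgat2 was stepwise, with 1 and 2 mM equal within the error (0.01 ± 0.10, adjusted p = 0.961) and 5 mM above both groups of arrays. Lpin1 by its brightest probe was flat through 2 mM and rose between 2 and 5 mM, and Plin3 reached its lower level by 2 mM. The course of Lpin1 depended on the probe, since ILMN_2507725 already rose at 2 mM (0.64, adjusted p = 0.00597). In a fit of mean values per gene, Lpin1 rose at 2 mM (0.33, adjusted p = 0.00628) and from 1 to 2 mM (0.37, adjusted p = 0.0231). With BeadChip as a term several of these steps did not pass. They were Plin2 at 1 mM (adjusted p = 0.146), Dgat2 at 1 and 2 mM (0.65 and 0.787), Plin3 at 2 mM (0.123) and ILMN_2507725 at 2 mM (0.888). At 5 mM against PBS 6 of 9 genes had groups that did not overlap, where 45.4% of tested probes did so. That background is by probe, and a share by gene was not computed. As a linear slope per mM 5 members rose and 1 fell, where 50.5% of probes (26% up, 24.4% down) and 55.6% of all named genes passed. The slopes ran from −0.09 ± 0.03 for Plin3 (adjusted p = 0.00792) to 0.19 ± 0.02 for Dgat2 (adjusted p = 1.71e-07). With BeadChip as a term 3 rose and 0 fell, where 22.8% of probes passed and, of 10605 named genes, 1648 rose and 1198 fell.

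Dgat2 and Plin3, by the brightest probe the largest rise and the only called fall at 5 mM in the fit without a BeadChip term, were matched with the genes of the most similar profile, by the mean absolute difference of the 4 group means after centring each gene, over 10605 genes. Nearest to Dgat2 was Sesn2, a stress-induced regulator of growth signalling (0.016 log2 units), with group means of 5.52, 5.95, 5.95 and 6.55. The next were 4930402H24Rik (0.025), Slc4a8 (0.028), Pvt1 (0.028) and Rab4a (0.033). Nearest to Plin3 were 6820431F20Rik (0.009), Trmt1 (0.019), Tkt, a transketolase of the pentose phosphate pathway (0.021), Slc25a32 (0.027) and Prkx (0.028). These are descriptions over 4 means from arrays that the genes share.

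Other genes of droplets and triglyceride turnover were taken from a list of 47, of which 30 had a tested probe. This list too was made with earlier results of these data known, so its counts and medians are only descriptions. At 5 mM 17 of the 30 rose, 2 fell and 11 did not pass (63.3% called), with a median of 0.37 log2 units. Over all 10605 named genes the median was 0.01 and 58.7% changed, 3388 upward and 2833 downward. At 2 mM 13 of the 30 rose and 3 fell, where 40.8% of all named genes changed, and at 1 mM 4 rose and 1 fell, where 19.6% did. With BeadChip as a term 10 rose and 0 fell at 5 mM, where 1706 of the 10605 named genes rose and 1269 fell. In the same fit 5 rose and 0 fell at 2 mM (838 and 476 of all named genes), and 3 rose and 0 fell at 1 mM (496 and 298). This was counted by the brightest tested probe of each gene.

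Genes of the droplet coat and of droplet assembly had 7 of 10 tested members higher and 1 lower at 5 mM, with a median of 0.64. The share called was 80%, beside 58.7% of all named genes. Cideb, the hepatocyte relative of Cidec that serves lipoprotein loading and droplet fusion, was at 7.96 ± 0.20 (SD, n = 5) in PBS and 9.25 ± 0.21 (n = 4), 9.60 ± 0.10 (n = 5) and 9.89 ± 0.11 (n = 4) with rising dose. It rose by 1.29 ± 0.11 (SE) already at 1 mM (adjusted p = 1.45e-07) and by 1.93 ± 0.11 at 5 mM (3.82-fold, adjusted p = 6.77e-12). Fitm2, which binds triglyceride in the endoplasmic reticulum where droplets form, was at 8.52, 8.46 and 8.74 in PBS, 1 mM and 2 mM and at 10.16 ± 0.06 at 5 mM. It rose by 1.64 ± 0.07 at 5 mM (adjusted p = 1.04e-13), mostly between 2 and 5 mM (1.42), though another of its probes gave 0.51. Hsd17b11, a droplet-bound dehydrogenase, rose by 1.47 ± 0.09 (adjusted p = 5.23e-11), and its other probes gave 1.49 and 1.05. In the fit with BeadChip as a term these 3 were at 1.87, 1.67 and 1.52 and passed. The other 4 that rose were Bscl2, the seipin of droplet assembly (0.94), Hilpda, a hypoxia-inducible inhibitor of Pnpla2's product (0.79), the perilipin Plin5 (0.49) and the hydrolase Ldah (0.48). Of these only Bscl2 passed with BeadChip as a term (1.12). Plin5 was near background, detected on 1 of 5 PBS arrays, and its 5 mM arrays overlapped PBS. The gene that fell was Pcyt1a, the regulated enzyme of phosphatidylcholine synthesis (−0.45, adjusted p = 0.000281), chosen like the other 4 after values were seen, and it did not pass with BeadChip as a term (−0.27, adjusted p = 0.418).

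Of the genes of triglyceride synthesis 3 of 9 tested rose at 5 mM, 0 fell and 6 did not pass, with a median of 0.14. The share called was 33.3%, below the 58.7% of all named genes. Agpat4, an acyltransferase for lysophosphatidate, was at 7.44 ± 0.20 (SD, n = 5) in PBS and, with rising dose, at 8.10 ± 0.21 (n = 4), 8.76 ± 0.13 (n = 5) and 9.71 ± 0.05 (n = 4). It rose by 2.27 ± 0.11 (4.84-fold, adjusted p = 4.81e-13), the largest rise on the list. Gpd1, which makes glycerol phosphate in the cytosol, rose by 1.10 ± 0.13 (adjusted p = 5.6e-07), and Mogat2, which acylates monoacylglycerol, by 1.07 ± 0.11 (adjusted p = 1.12e-07) from a level detected on 1 of 5 PBS arrays, with another probe at 0.48. In the BeadChip fit they were at 1.78, 1.20 and 0.96 and passed. The 6 that did not pass were at −0.27 to 0.15 and included the glycerol phosphate acyltransferases Gpam (−0.12, adjusted p = 0.363), Gpat3 (−0.27, adjusted p = 0.116) and Gpat4 (0.09, adjusted p = 0.341). Another of them, Agpat1, moved from 0.15 to 0.78 with BeadChip as a term and then passed (adjusted p = 0.0403).

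Of the genes of lipolysis and its regulators 4 of 7 tested rose at 5 mM and 0 fell, with a median of 0.35. The share called was 57.1%, near the 58.7% of all named genes. Lipa, the acid lipase of lysosomes, rose by 1.04 ± 0.07 (adjusted p = 4.07e-11) from 9.91 ± 0.06 in PBS, and already by 0.48 at 1 mM. Pnpla3, a droplet-bound relative of Pnpla2, rose by 0.38 ± 0.10 (adjusted p = 0.00227) and Pnpla1, a relative known from skin, by 0.36 ± 0.10 (adjusted p = 0.00603). Pnpla1 was not detected on any PBS array, so its rise as a bound was at least 1.01-fold, and Pnpla3 was detected on 1 of 5. Lipa was at 1.04 with BeadChip as a term, where Pnpla3 (0.25, adjusted p = 0.501) and Pnpla1 (0.11, adjusted p = 0.799) did not pass. Abhd5, the coactivator of Pnpla2's product, named after its value was seen, rose by 0.35 (adjusted p = 0.0109) and was at 0.64 with BeadChip as a term (adjusted p = 0.0504). G0s2, the inhibitor of the Pnpla2 product, was at −0.12 (adjusted p = 0.448), and Mgll, the monoglyceride lipase, at −0.15 (adjusted p = 0.373), the latter near background.

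For lipoprotein assembly and steryl esters 3 of 4 tested genes rose at 5 mM and 1 fell, with a median of 0.88, where 58.7% of all named genes changed. Nceh1, a hydrolase of neutral cholesteryl esters, rose by 1.27 ± 0.09 (2.42-fold, adjusted p = 1.82e-10), from 9.22 ± 0.16 to 10.50 ± 0.06 (SD). Tm6sf2, which serves the lipidation of very low density lipoprotein, rose by 1.27 ± 0.18 (adjusted p = 4.06e-06) from a level detected on 1 of 5 PBS arrays. Mttp, the triglyceride transfer protein, was detected on 2 of 5 PBS arrays, and its 5 mM arrays overlapped PBS. It rose by 0.49 (adjusted p = 0.0206), a gene named after its value was seen. P4hb, the partner subunit of that protein, fell by 0.24 (SE 0.07, adjusted p = 0.00591). In the BeadChip fit Nceh1 was at 1.45 and passed, whereas Tm6sf2 (1.08, adjusted p = 0.0867), Mttp (0.27, adjusted p = 0.696) and P4hb (0.05, adjusted p = 0.87) did not.

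**Figure D4:**
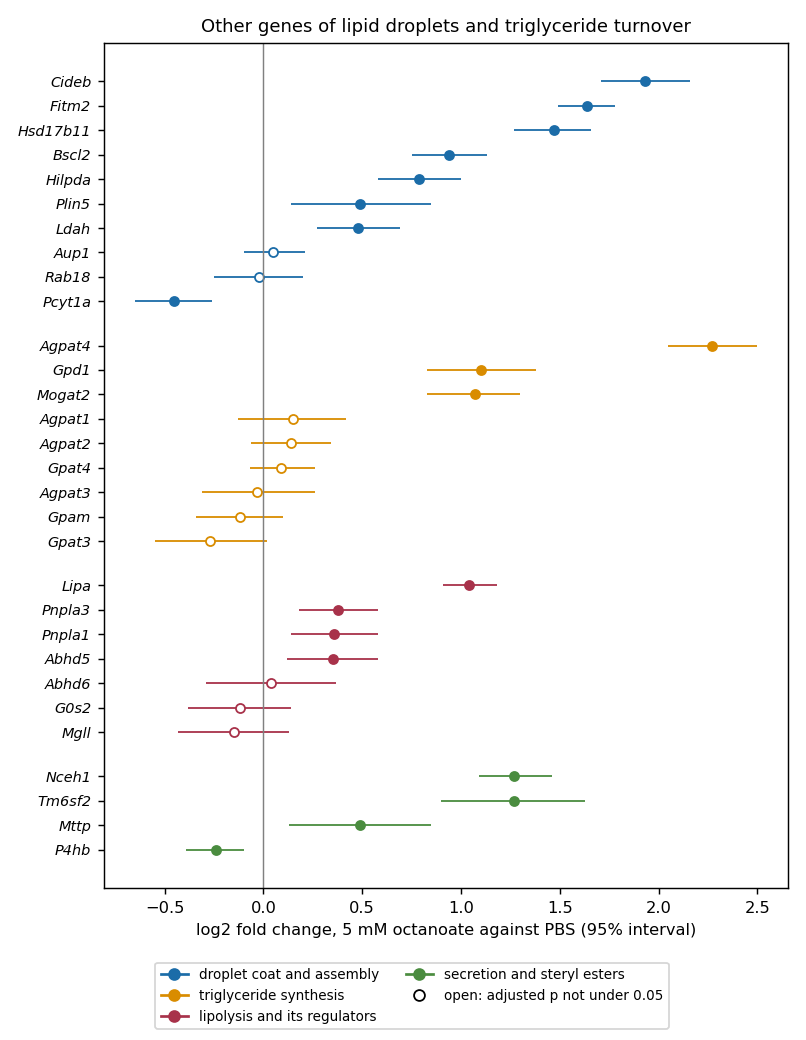
Log2 fold change at 5 mM octanoate against PBS (x axis) with its 95% interval for the 30 tested genes of the wider list (y axis), coloured by role and filled where adjusted p is under 0.05. Agpat4 (2.27) and Cideb (1.93) lie farthest to the right, and Pcyt1a (−0.45) and P4hb (−0.24) are the filled points below 0.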

How the data were processed

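Total RNA of 18 samples was hybridised in 1 colour (biotin) to Illumina mouse BeadChips, per the labels. The authors deposited the bead intensity of 45281 probes per array, not normalized, and beside it a detection p-value against negative controls, per the file headers. A second deposited table holds the authors' processed values on a log2 scale, for which the submitters' processing notes name lumi. The sources used here do not give its transform. Over bright probes its deviations from the mean followed log2 intensity (r from 0.978 to 0.999), its array medians were 7.35 to 7.36 and it ran in the same direction. Its changes of dim probes were smaller.

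The limma package 3.58.1 (R 4.3.3, statmod 1.5.0) supplied neqc, run with an offset of 16, which corrects background and quantile-normalizes. This removes a shift of most transcripts and understates changes of dim probes. Probes with detection p under 0.05 on at least 4 arrays were tested (20536, 45.4%). Probe symbols from the platform annotation were updated by Entrez ID through RefSeq, and 34885 probes had 1 symbol, 18 had several and 10378 are unnamed here. The brightest tested probe stood for a gene.

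A mean per group was fitted by lmFit and eBayes over all 18 arrays (14 residual degrees of freedom), two-sided, adjusted by Benjamini-Hochberg. A probe below detection in a whole group gives only a bound, its bright mean set against a floor, which on each dim array is the lowest detected signal or the probe's own value, whichever is higher. Within-array differences of 4 pairs (2 perilipins, 2 enzymes of one reaction, 2 lipins and 2 Lpin1 probes) were compared by exact permutation tests. The number of arrays limits the precision (median SE 0.114 at 5 mM). Replicate numbers were not used to pair samples in the main fit. Same-numbered deviations across groups correlated at −0.04 to 0.05, which shows no shared shift but cannot show that samples were unpaired. Named genes were all members, up to 3 called genes with the smallest adjusted p at 5 mM per role of a wider list, and the 5 nearest profiles to the largest rise and fall. Members and lists were chosen with earlier results of these data known. Probe sequences were not used here.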

Additional observations from a re-analysis of the deposited data

Results flagged for a closer look

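In 3 of 36 groups of arrays (9 genes in 4 dose groups) 1 array lay far from the others by Dixon's test at the 95% level, a rate of about 1 in 20 being given by chance. Plin3 on 1 mM replicate 3 was at 9.59 log2 units, with the nearest of the other arrays at 9.85. Lpin1 on 2 mM replicate 2 was at 6.11, with the nearest at 5.79. Lipe on 1 mM replicate 4 was at 4.64, with the nearest at 4.95, all near background.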

How the results depend on the processing

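Of 1770 comparisons of a single value with its alternative, 1673 kept their side of the threshold, 74 lost the call and 23 gained it. A called direction was turned in 0, whereas values that were not called could change sign. Median scaling moved the median of all probes to −0.11 at 1 mM and to 0.16 from 2 to 5 mM. Relative to that median Plin2 was at 0.27 and Dgat2 at 0.34 at 1 mM. It called 498 probes higher and 2032 lower at 1 mM (1922 and 1697 with quantile normalization) and 6191 and 3270 at 5 mM (5586 and 5400). Members called under it numbered 0 at 1 mM, 0 between 1 and 2 mM and 5 between 2 and 5 mM, and genes of the wider list 3 at 1 mM and 10 at 2 mM. With BeadChip as a fixed term members called were 0 at 1 mM, 0 between 1 and 2 mM, 3 at 5 mM and 3 by slope, and genes of the wider list 3, 5 and 10 at 1, 2 and 5 mM. It called 1295, 2134 and 4965 probes at those doses against 3619, 7615 and 10986. BeadChip as a random block (correlation 0.035) called 10427 at 5 mM. The mean of a gene's probes called 2 members between 1 and 2 mM. The replicate block called 0 members there, lost Plin3 (−0.37, adjusted p = 0.052) and Lpin2 between 2 and 5 mM (0.46, adjusted p = 0.0792), and changed no other member's call. Leaving out 3 arrays that stood apart called 1 member at 1 mM and 0 between 1 and 2 mM. With 1 array fewer, members called ran from 2 to 3 at 1 mM, 3 to 4 at 2 mM, 6 to 7 at 5 mM and by slope, 0 to 1 between 1 and 2 mM and 2 to 4 between 2 and 5 mM, and genes of the wider list from 5 to 6, 12 to 17 and 18 to 19. In the authors' processed values, changes at 5 mM kept their calls but were smaller for Dgat1 (0.20), Lpin1 (0.24), Lpin2 (0.28) and Dgat2 (0.65). The cause of these moves was not tested. Among the members, signal near background limits Plin4, Lipe and Cidec.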
